A study of Miniopterus schreibersii with 14 samples.

Results

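A set of 5 components of the bat limb transcriptome that scored high in hindlimb and low in forelimb was followed from the limb bud to the fetal foot: comp3599_c0, comp13294_c0, comp7133_c0, comp13621_c0 and comp14177_c0. A component is a group of assembled transcripts, named by number only, and can be a whole transcript or a fragment. These 5 of 64618 components were selected on the scores themselves, as high in hindlimb and low in forelimb libraries, so their limb difference is given below as a description with no test. All 5 passed the filter on low scores, which asked for an average of 10 or more across the 14 libraries, and it could be passed through the hindlimb alone. Component numbers come from the assembly, so they could not match the names in the table of 22775 bat genes used here (0 matches). No sequence was compared, so no gene name, protein or promoter can be given for any of them.

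Forelimb and hindlimb buds look alike when they first form, yet each already runs its own program of limb-type transcription factors. In vertebrates Tbx5 is made in the forelimb, and Pitx1 and Tbx4 are made in the hindlimb, where Pitx1 sets hindlimb traits and acts upstream of Tbx4. In bats the forelimb digits lengthen and keep the web between them to form the wing, while the thumb and the foot stay short and free. Transcripts confined to one limb are therefore useful landmarks for the hand and foot plates, whatever gene they come from.

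The libraries came from embryos of the bent-wing bat Miniopterus schreibersii, with no treatment or genetic change named. The hindlimb group held 6 libraries: the anterior, middle and posterior parts of the S14 bud, foot digits I-V and the tissue between them at S15-17, and fetal metatarsals I-V. The forelimb group held 8: the same parts of the S14 bud, then digit I and interdigital tissue I-II (called the thumb side), digits II-V and interdigital tissue II-V (the wing region), and fetal metacarpals II-V. Each part had 1 library, so parts of 1 stage stand in for replicates in the tests. A p-value sets a difference against the spread between those parts, with differences between embryos or libraries inside it. In the thumb against wing test, tissue is a block, so the spread is what remains after the digit to interdigital difference. The labels do not say how many embryos went into a library. Each score is a normalized count rounded to a whole number, and 1 read was worth a score of 1.29 to 2.23 depending on the library. The libraries held 4550754 to 7648427 reads. Error ranges on single values are exact 95% intervals for read counting alone. They treat reads as independent, but reads without molecular identifiers are not independent molecules, so the ranges can be too narrow. In these pieces of tissue, fewer cells that make a transcript and less of it per cell cannot be told apart. Scores are not divided by transcript length, so levels are compared within a component and not between components.

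Component comp3599_c0 marked the hindlimb most sharply. Its hindlimb scores were 1659, 1848 and 2097 in the anterior, middle and posterior bud, 1636 in foot digits, 1200 in foot interdigital tissue and 175 in metatarsals. Its forelimb scores were 0, 2 and 2 in the bud parts and 0 in metacarpals. At S15-17 the thumb side had 21 (digit) and 26 (interdigital), and the wing region 5 and 8. The limbs did not overlap, and the lowest hindlimb score was 6.73 times the highest forelimb score. Reads pooled over a limb and scaled by library totals were 170.2 times as high in hindlimb as in forelimb (95% interval 124 to 241). The thumb-side libraries, which have no separate hindlimb library, held 28 of the 38 forelimb reads. Over the 6 matched pairs of parts, which leave them out, the ratio was 494.2 (268.5 to 1031). After S14 these pairs are not fully alike, since the foot and metatarsal libraries hold digits I-V and their forelimb partners II-V.

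Component comp13294_c0 was also near 0 in most forelimb libraries, but on far fewer reads. It scored 54, 69 and 74 in the hindlimb bud parts, 45 in foot digits, 19 in foot interdigital tissue and 16 in metatarsals. In forelimb it was at 0 in 6 of 8 libraries and at 2 and 3 in digit I and digits II-V. These forelimb scores rest on 3 reads in all, against 162 in hindlimb, a scaled ratio of 67.6 (95% interval 22.7 to 331). A library with 0 reads still allows 3 reads, which is a score of 3.87 in metacarpals and 6.70 in the anterior forelimb bud.

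Component comp7133_c0 was high in hindlimb over a measurable forelimb base. The hindlimb scores were 896, 1083 and 1162 in the bud parts, 833 and 523 in foot digits and interdigital tissue, and 246 in metatarsals. All 8 forelimb libraries held reads of it, with scores from 16 in the anterior bud to 106 in digits II-V and a median of 43. The limbs did not overlap, with the lowest hindlimb score at 2.32 times the highest forelimb score, and the pooled ratio was 13.6 (95% interval 12 to 15.5).

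For the remaining 2 components the word restricted holds less well. Component comp13621_c0 scored 462, 396 and 341 in the hindlimb bud, 57 and 56 in the foot and 42 in metatarsals, against 13, 26 and 19 in the forelimb bud, 13 (digit) and 32 (interdigital) beside the thumb, 9 and 31 for the wing region, and 1 in metacarpals. The limbs were apart by only 1.31-fold at their nearest libraries, metatarsals and interdigital tissue I-II. Component comp14177_c0 scored 187, 35 and 195 in the hindlimb bud, 62 and 11 in the foot and 48 in metatarsals, while forelimb scores ran from 0 to 18 with a median of 7. Its limbs overlapped, since metacarpals at 18 lay above foot interdigital tissue at 11, so it is better described as higher in hindlimb than as restricted to it. The pooled ratios were 11.6 for comp13621_c0 (95% interval 9.26 to 14.7) and 10.02 for comp14177_c0 (95% interval 7.23 to 14.2).

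**Figure D1:**
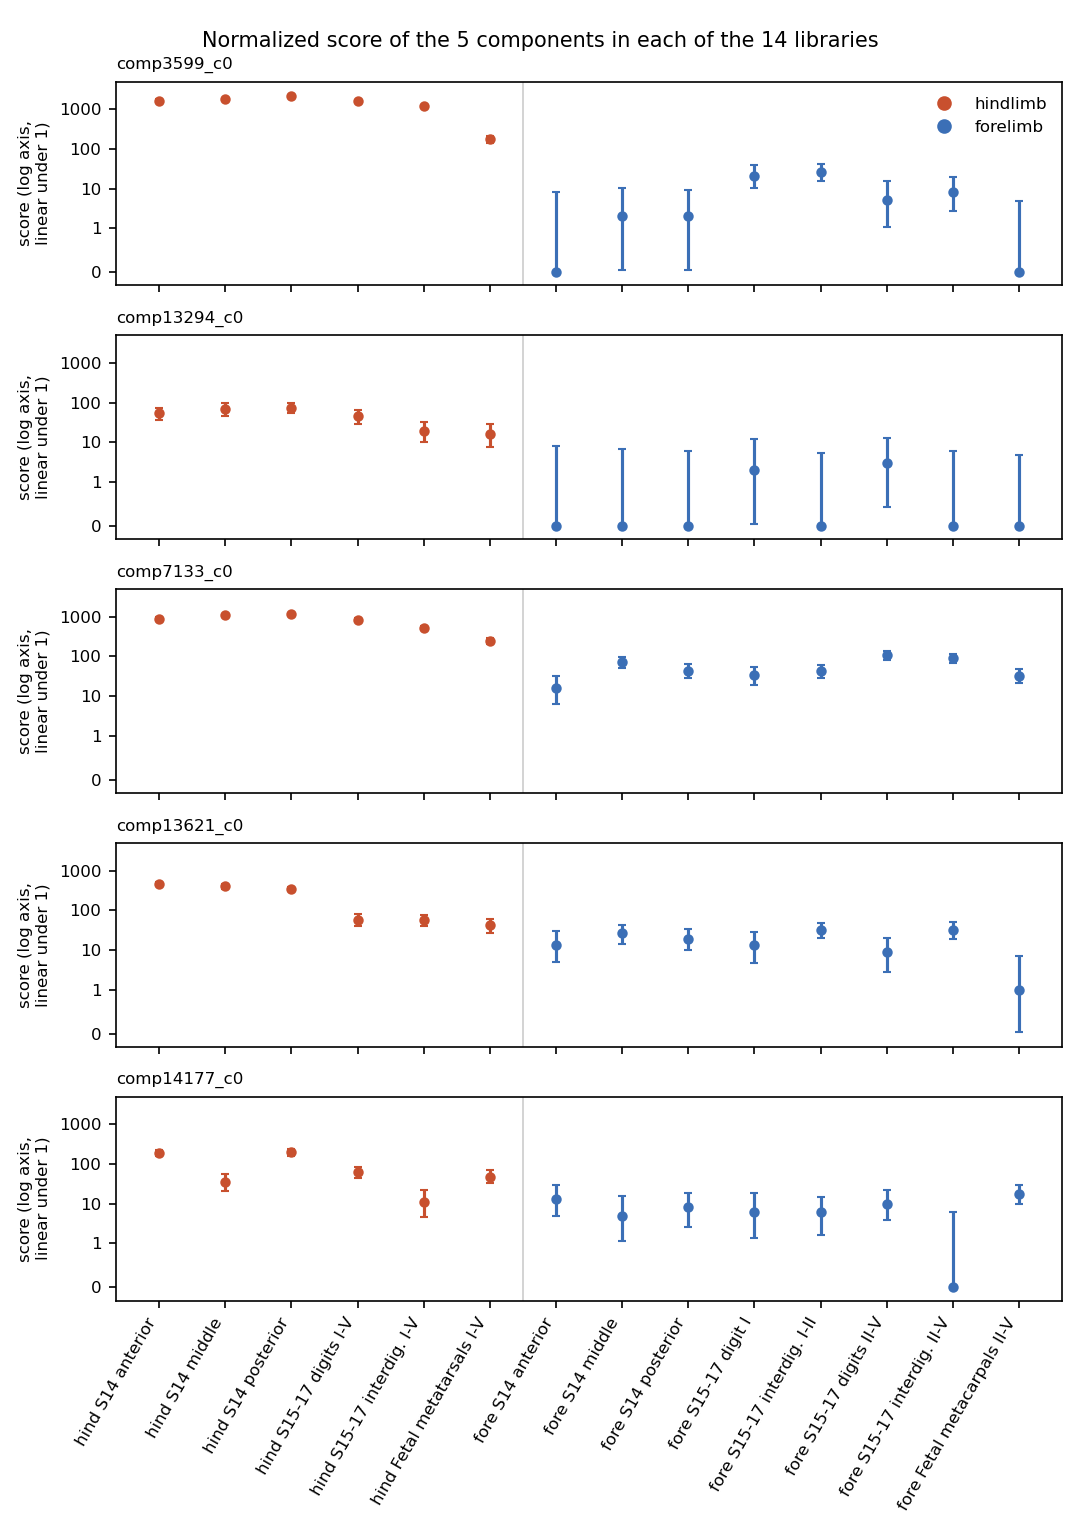
Score of each component (vertical axis, log scale, linear under 1) in the 6 hindlimb and 8 forelimb libraries, 1 panel a component. Points are single libraries and bars are exact 95% counting intervals; 4 components have every hindlimb point above every forelimb point, and in comp14177_c0 foot interdigital tissue at 11 lies below metacarpals at 18.

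All hindlimb scores lay above all forelimb scores for 4 of the 5 members and for 9 of 20429 kept components (0.0441%), a contrast the members were picked on. Over the 6 matched pairs of parts, the mean hindlimb minus forelimb difference in log2(score + 1) was 8.67 for comp3599_c0, 5.01 for comp13294_c0, 3.79 for comp7133_c0, 3.47 for comp13621_c0 and 3.04 for comp14177_c0. They ranked 1, 2, 3, 4 and 6 among the kept components. The component in between, comp16672_c0, differed by 3.23 and also had limbs that did not overlap; it scored 39, 42 and 159 in the hindlimb bud and 0, 2 and 16 in the forelimb bud. The next after the last member, comp31118_c0, differed by 3.01, with 33, 44 and 24 in the hindlimb bud and 2, 0 and 5 in the forelimb bud, but only 3 in metatarsals. No fixed threshold thus separates the members from their neighbours.

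The first question was how each component fared as the hindlimb grew, a comparison inside the hindlimb. The members were picked on high hindlimb scores, those of the bud parts among them. The hindlimb stage tests of the members, to S15-17 and to the fetal stage, are thus not independent of that choice. From the bud to the S15-17 foot, comp13621_c0 fell and was the only member that passed the test, while the others were lower by amounts that missed it. Its score went from 399.7 ± 60.6 (SD, n = 3 bud parts) to 56.5 ± 0.707 (SD, n = 2 foot parts), 14.1% of the bud mean. Both foot parts, at 57 and 56, lay far below the lowest bud part at 341. In limma the log2 difference was -2.79 (SE 0.18, adjusted p = 0.0020), lower in both foot libraries than in every bud library. The other 4 members had a log2 difference below 0 too. Over all kept components, 2334 of 20429 (11.4%) were called lower in this comparison, and 1565 higher.

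Component comp3599_c0 was at 75.9% of its bud mean, with 1418 ± 308 (SD, n = 2) in the foot against 1868 ± 219.7 (SD, n = 3) in the bud. The foot digits at 1636 fell just short of the anterior bud at 1659, and foot interdigital tissue at 1200 was lower. Its log2 difference was -0.41 (95% interval -0.81 to -0.01), which did not pass in limma after adjustment (adjusted p = 0.13). Component comp7133_c0 was at 64.8% of its bud mean (log2 difference -0.66, 95% interval -1.19 to -0.12, limma adjusted p = 0.088). Component comp13294_c0 was at 48.7% (-1.12, 95% interval -2.15 to -0.10, limma adjusted p = 0.11), with 40 foot reads behind the value. For comp14177_c0 the difference was -2.0 with a 95% interval from -4.42 to 0.43 (limma adjusted p = 0.21), and its scores scattered widely within both stages. These 4 differences depended on which foot part was used. Without foot interdigital tissue they were -0.18 for comp3599_c0, -0.32 for comp7133_c0, -0.52 for comp13294_c0 and -0.80 for comp14177_c0. Without foot digits they were -0.63, -0.99, -1.73 and -3.20 in the same order, and none passed in limma in either case (adjusted p from 0.057 to 0.69). Upper-quartile scaling, which shifted the median of all kept components from -0.02 to 0.11, gave 2165 higher and 1560 lower calls. Voom on the recovered reads gave 2983 higher and 1604 lower, with a median of 0.14. The members' differences were below 0 under both, from -0.27 to -2.66 under the first and from -0.25 to -2.63 under the second.

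By the fetal stage 4 of the 5 components had fallen from the bud. Metatarsals held 9.37% of the bud mean of comp3599_c0, a score of 175 against 1659 to 2097. They held 10.5% of comp13621_c0, 23.5% of comp7133_c0 and 24.4% of comp13294_c0, each below every bud part and every foot part. For comp13621_c0 the counting interval in metatarsals overlapped those of both foot parts (42 against 57 and 56). For comp13294_c0 it overlapped that of foot interdigital tissue (16 against 19, on 10 and 14 reads). In limma the log2 difference from bud to metatarsals was -3.40 for comp3599_c0 (SE 0.21, adjusted p = 9.4e-05), -3.21 for comp13621_c0 (SE 0.23, adjusted p = 0.00014), -2.08 for comp7133_c0 (SE 0.28, adjusted p = 0.0013) and -1.96 for comp13294_c0 (SE 0.53, adjusted p = 0.020). The exception was comp14177_c0, which scored 48 in metatarsals, between the middle bud at 35 and the outer bud parts at 187 and 195 (log2 difference -1.17, 95% interval -4.23 to 1.90, limma adjusted p = 0.45). Its difference was -0.78 without the anterior, -1.97 without the middle and -0.75 without the posterior bud. A fall by the fetal stage was common: 7472 of 20429 kept components (36.6%) were called lower, with a median difference of -0.26 over all of them and -2.08 over the 5 members. Upper-quartile scaling moved the median of all kept components to -0.07 and median-centring to -0.44, and the 4 calls held under both. The single fetal library is assumed to vary like the other stages, the parts dissected differ between the stages, and the same bud libraries serve both stage comparisons. The call of comp13294_c0 was lost without the middle bud (limma adjusted p = 0.054), without the posterior bud (0.056), with no filter (0.075) and in a fit over all 14 libraries (0.053). Its adjusted p over all alternatives ran from 0.0063 to 0.075.

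The components took different routes to these fetal levels. Component comp3599_c0 stood at 75.9% of its bud mean at S15-17 and 9.37% in metatarsals, so most of the drop lay after the foot digits had formed; metatarsals held 0.107 times the score of foot digits (95% counting interval 0.0871 to 0.131). Component comp13621_c0 had most of its drop before that stage, and metatarsals held 0.737 times the foot digit score (0.425 to 1.28). Components comp7133_c0 and comp13294_c0 lay in between, at 0.295 (0.245 to 0.355) and 0.356 (0.155 to 0.774) times their foot digit score. In comp14177_c0 metatarsals held 0.774 times the digit score (0.465 to 1.31) but more than foot interdigital tissue, which had 11. Metatarsals and foot digits are 1 library each, so these ratios have no replicate check.

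**Figure D2:**
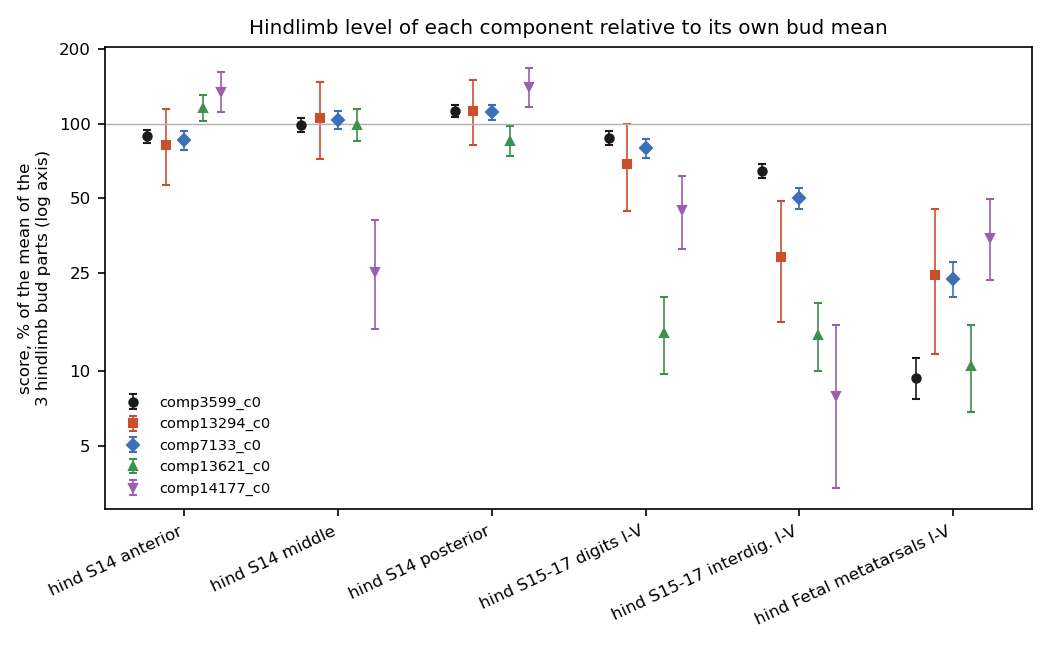
Score of each component in the 6 hindlimb libraries as a percentage of its own mean over the 3 hindlimb bud parts (log axis), with exact 95% counting intervals. At S15-17 comp13621_c0 is at about 14% in both foot parts while comp3599_c0 is at 87.6% in digits and 64.2% in interdigital tissue, and in metatarsals these 2 are the lowest, at 10.5% and 9.37%.

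**Figure D3:**
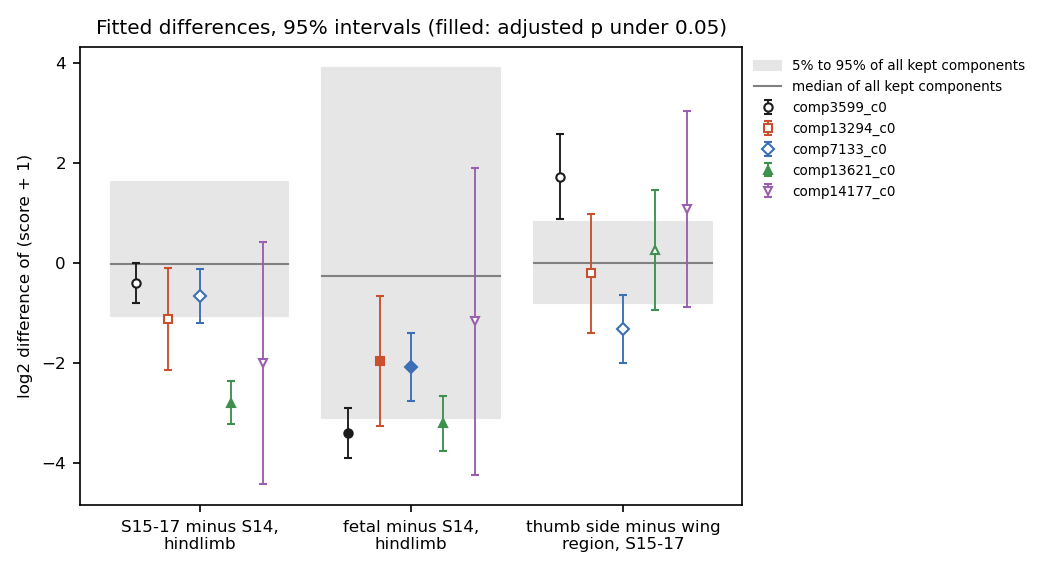
Fitted difference in log2(score + 1) for the 5 components in 3 comparisons, with 95% intervals; filled symbols passed an adjusted p of 0.05, and grey bands hold the middle 90% of kept components between their 5th and 95th percentiles. Every member lies below 0 in the 2 hindlimb comparisons. In the thumb comparison comp3599_c0 at 1.73 lies above the band and comp7133_c0 at -1.32 below it. Component comp14177_c0 at 1.08 also lies above it, with an interval that holds 0.

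The forelimb held only a few reads of most members, which limits how well the gap between the limbs can be followed over the stages. The limb ratios of each stage are given as a description, since the members were picked on limb scores that include those of the S14 bud. The S15-17 forelimb pool also holds the thumb side, so the parts pooled differ between the stages. The share of all kept components with a smaller ratio at S15-17 than at S14 was not counted, so a change in ratio is not read as a trait of the members. In reads scaled by library totals and pooled over the parts of a stage, hindlimb held 1502 times the forelimb level of comp3599_c0 at S14 (95% interval 415 to 12410), on 2 forelimb reads, and 89.9 times at S15-17 (64.7 to 129), on 36 forelimb reads. The thumb side held 28 of those 36 reads. Against the wing region alone, the S15-17 ratio of comp3599_c0 was 305.7 in digits (104 to 1485) and 143.7 in interdigital tissue (61.4 to 444). For comp7133_c0 the same wing ratios were 7.65 and 5.79. For comp7133_c0 the ratio was 23.0 at S14 (18.2 to 29.4), 9.52 at S15-17 (8.04 to 11.3) and 7.16 in the fetal pair (4.67 to 11.4). For comp13621_c0 it was 20.05 at S14 (14.1 to 29.6) and 2.51 at S15-17 (1.74 to 3.65), then 30.4 in the fetal pair (5.0 to 1247) on 1 metacarpal read. For comp14177_c0 it was 16.9 at S14 (9.91 to 31.4), 5.96 at S15-17 (3.15 to 12.1) and 2.51 in the fetal pair (1.29 to 5.12). Component comp13294_c0 had no forelimb read at S14, where the exact 95% lower limit of the ratio was 27.9. With 3 reads summed over the forelimb parts as the floor, the S14 ratio would be 34.9. At S15-17 the ratio was 23.5 (7.48 to 119). A test of the difference itself, the limb by stage interaction between S14 and S15-17, was added after the data had been seen. In limma it called 0 of 20429 components (0%), with 2687 at an unadjusted p under 0.05 and 0 calls by voom. The members' adjusted p in limma ran from 0.27 for comp13621_c0 (log2 -2.79, 95% interval -4.16 to -1.42) to 0.75 for comp14177_c0. No difference between the limbs in their course passed. The interaction is built from the limb scores the members were picked on, so their values in it are not independent of that choice. With forelimb scores near 0 it also depends on the pseudocount added before the log. For comp3599_c0 it was -3.94 at a pseudocount of 0.25 and -1.93 at 5.

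Within the S14 hindlimb bud, only comp14177_c0 had over a 2-fold spread between its highest and lowest part (1 of 5 members, against 17.9% of kept components). The other 4 had highest-to-lowest ratios of 1.26 to 1.37, close to the median of 1.30 (on score + 1) over all kept components, so these small gradients are given as values and not as a trait of the members. For 3 of them, the anterior part was lowest and the posterior part highest. The posterior score was 1.26 times the anterior one for comp3599_c0 (95% counting interval 1.16 to 1.37), 1.30 times for comp7133_c0 (1.16 to 1.45) and 1.37 times for comp13294_c0 (0.858 to 2.21). Only for the last did the interval include 1. Component comp13621_c0 ran the other way, at 462 in the anterior, 396 in the middle and 341 in the posterior part, with a posterior score 0.738 times the anterior one (0.614 to 0.884).

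In comp14177_c0 the middle part of the bud was low. The scores of 187 and 195 in the outer parts differed by less than their counting error, at a ratio of 1.04 (95% interval 0.802 to 1.36), while the middle part at 35 had 0.187 times the anterior score (0.107 to 0.316). It rests on 17 reads in the middle part, 115 in the anterior and 122 in the posterior. The forelimb bud had 13, 5 and 8, where the middle part was again the lowest but on 3 to 6 reads a library. Each part is 1 library, so none of these gradients has a replicate check.

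**Figure D4:**
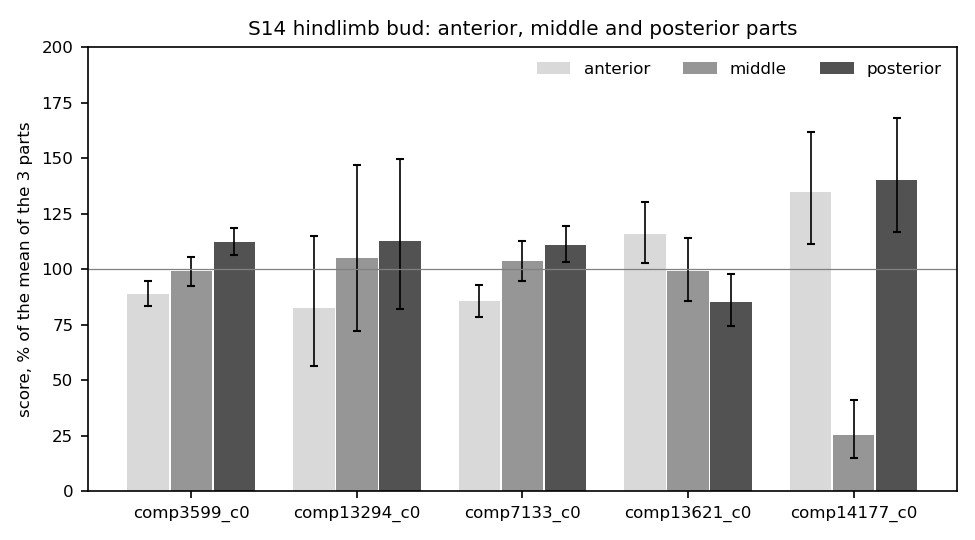
Score in the anterior, middle and posterior part of the S14 hindlimb bud as a percentage of the mean of the 3 parts, with exact 95% counting intervals. Bars of 4 components lie between 82.2% and 116% of the mean, while the middle part of comp14177_c0 is at 25.2%.

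In the S15-17 foot, 4 of the 5 components scored higher in the digits than in the tissue between them. The ratio was 1.36 for comp3599_c0 (95% counting interval 1.24 to 1.495), 1.59 for comp7133_c0 (1.39 to 1.83), 2.37 for comp13294_c0 (1.18 to 4.84) and 5.64 for comp14177_c0 (2.59 to 14.1). Component comp13621_c0 was level, at 57 and 56 (ratio 1.02, 0.621 to 1.64). Both comp13294_c0 and comp14177_c0, 2 of 5 members, were over 2-fold higher in foot digits, as were 5.61% of kept components, and the median ratio over all kept components was 1.02 on score + 1. Both foot parts are single libraries. The value of comp14177_c0 rests on 36 digit and 8 interdigital reads, and that of comp13294_c0 on 26 and 14.

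The low forelimb signal was then set out by region, since the thumb side stays short and free like the foot. The components did not share 1 pattern of forelimb signal. Component comp3599_c0 scored higher on the thumb side, with 21 for the digit and 26 between digits, than in the wing region, with 5 for digits and 8 between them. Component comp7133_c0 had the reverse order, with thumb-side scores of 34 and 43 and wing scores of 106 and 89. In these 2 of 5 components the regions did not overlap, as in 7067 of 20429 kept components (34.6%), so such separation of 2 libraries from 2 is common. The other 3 overlapped: comp13294_c0 had 2 and 0 against 3 and 0, comp13621_c0 had 13 and 32 against 9 and 31, and comp14177_c0 had 6 and 6 against 10 and 0.

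By counting alone, comp3599_c0 had 28 thumb-side reads and 8 wing reads, 3.50 times as many after scaling by library totals (95% interval 1.56 to 8.89), and comp7133_c0 had 46 and 115, or 0.400 times as many (0.278 to 0.568). These intervals compare the libraries and leave out the spread between parts. In limma, over the 6 S15-17 libraries with tissue as a block, the thumb minus wing log2 difference was 1.73 for comp3599_c0 (SE 0.35, 95% interval 0.89 to 2.57, adjusted p = 0.24) and -1.32 for comp7133_c0 (SE 0.29, 95% interval -2.01 to -0.64, adjusted p = 0.28). Neither passed. For comp13621_c0 the difference was 0.26 (95% interval -0.94 to 1.47), for comp13294_c0 -0.21 (-1.40 to 0.99) and for comp14177_c0 1.08 (-0.88 to 3.03), with adjusted p in limma of 0.94, 0.96 and 0.79. The test called 2 of 20429 components (0.00979%), neither of them a member. Both comp3599_c0 and comp7133_c0 passed in limma with median-centred libraries (adjusted p = 0.035 and 0.037) and with robust variance shrinkage (0.018 and 0.028). Across the remaining alternatives they did not, with adjusted p from 0.235 to 0.82 for comp3599_c0 and from 0.10 to 0.86 for comp7133_c0.

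As a share of the foot part of the same tissue, the forelimb signal differed between components. The thumb side held 1.28% and 2.17% of the foot score of comp3599_c0 in digit and interdigital tissue, and the wing region 0.306% and 0.667%. For comp7133_c0 the thumb side held 4.08% and 8.22% and the wing region 12.7% and 17.0%. For comp13621_c0, whose foot level was itself low, digit I held 22.8% and digits II-V 15.8%, while the interdigital parts held 57.1% and 55.4%. Shares of comp13294_c0 and comp14177_c0 are poorly bounded, since 0 to 6 reads stand behind each. With 0 reads, the exact 95% upper limit, which also counts the error of the foot reads, was 32.0% of the foot score for comp13294_c0 in interdigital tissue I-II and 71.1% for comp14177_c0 in interdigital tissue II-V.

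**Figure D5:**
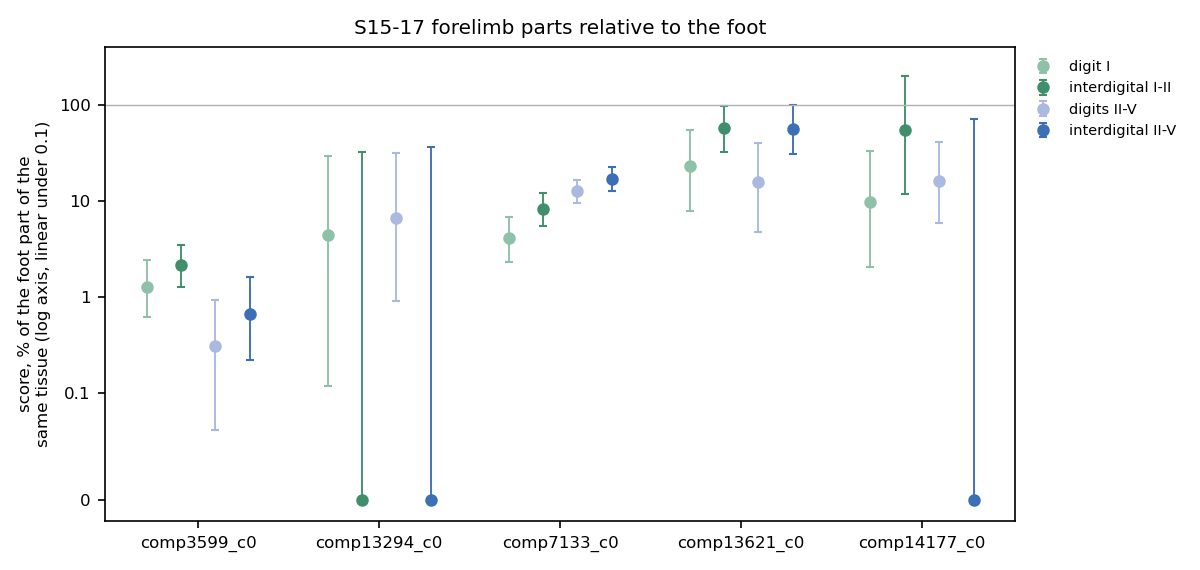
Score of each component in the 4 S15-17 forelimb parts as a percentage of the foot part of the same tissue (log axis, linear under 0.1), with exact 95% counting intervals on the ratio of 2 libraries. The thumb-side points of comp3599_c0 lie above its wing points (1.28% and 2.17% against 0.306% and 0.667%), those of comp7133_c0 lie below them, and the interdigital points of comp13621_c0 are above its digit points in both regions.

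Component comp13621_c0 also split by tissue in the forelimb, which was noticed after its values were seen. Interdigital tissue scored 32 against 13 in digit I on the thumb side, a ratio of 2.46 (95% counting interval 0.975 to 7.47), and 31 against 9 in the wing region, a ratio of 3.44 (1.30 to 12.4). It was the 1 member over 2-fold higher in interdigital tissue in both forelimb regions, as were 243 of 20429 kept components (1.19%). The foot, at 56 and 57, showed no such split. With 22 and 19 reads in interdigital tissue and 6 and 5 in digits, the forelimb ratios are imprecise, and the tissue difference was not tested.

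Relative to one another, comp3599_c0 and comp7133_c0 kept nearly fixed proportions in the bud, while for comp13294_c0 the proportions there were loosely bounded. Bud parts differed little in general, with a median highest-to-lowest ratio of 1.30 (on score + 1) over all kept components. By the metatarsals comp7133_c0 and comp13294_c0 were both higher relative to comp3599_c0. With the reads of comp3599_c0 as the yardstick and the pooled bud set to 1, comp7133_c0 stood at 0.967, 1.05 and 0.992 in the anterior, middle and posterior parts, with every 95% interval holding 1. In foot digits it stood at 0.911 (0.815 to 1.02), in foot interdigital tissue at 0.780 (0.690 to 0.880) and in metatarsals at 2.51 (1.95 to 3.24). Component comp13294_c0 stood at 0.930 (0.637 to 1.31), 1.07 (0.731 to 1.51) and 1.01 (0.73 to 1.35) in the bud, on 33, 33 and 46 reads. It stood at 0.782 in foot digits (0.508 to 1.15), 0.456 in foot interdigital tissue (0.248 to 0.769) and 2.63 in metatarsals (1.23 to 5.03). Component comp13621_c0 went from 1.30 in the anterior part (1.14 to 1.49) to 0.761 in the posterior part (0.655 to 0.880), then 0.162 in foot digits (0.111 to 0.229) and 1.12 in metatarsals (0.699 to 1.73). Component comp14177_c0 reached 3.48 in metatarsals (2.25 to 5.26).

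The ratio of comp13294_c0 to comp7133_c0 was followed through the hindlimb in the same way. For each 100 reads of comp7133_c0 there were 6.0, 6.35 and 6.34 reads of comp13294_c0 in the anterior, middle and posterior bud, 5.35 in foot digits, 3.65 in foot interdigital tissue and 6.54 in metatarsals. The 6 intervals all overlapped, and the pooled hindlimb value was 5.75 (95% interval 4.87 to 6.74). In forelimb there were 3 reads against 259, or 1.16 for each 100 (0.237 to 3.42), a value given as a description, since the members were chosen on low forelimb scores. Over the 6 hindlimb libraries, Pearson r of log2(score + 1) was 0.942 for this pair, 0.954 for comp3599_c0 with comp7133_c0, 0.799 for comp3599_c0 with comp13294_c0 and 0.246 for comp3599_c0 with comp14177_c0. These r describe 6 libraries that share their stage course and carry no test.

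Outside the 5, the components whose scores over the 14 libraries ran most like theirs were comp259_c0, with a mean Pearson r of 0.812 to the members, and comp31118_c0, with 0.765. Among the members the mean r to the other 4 ran from 0.681 for comp14177_c0 to 0.873 for comp13294_c0. Likeness of course did not always mean likeness of contrast: comp259_c0 was abundant in both limbs, at 6919, 7218 and 8823 in the hindlimb bud parts against 3832, 5421 and 4621 in the forelimb ones, and its mean limb difference was 0.50 on the log2 scale. For comp31118_c0 that difference was 3.01, close to the 3.04 of the member comp14177_c0. All r here follow from 14 libraries that share limb and stage, and they are given as descriptions.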

How the data were processed

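The authors deposited 1 table of scores for 64618 components in 14 libraries. Per the submitters' processing notes, CASAVA 1.8, RSEM and edgeR were used, with no role or order stated; assembly and annotation are not given in the sources used here. The deposited score is a normalized count rounded to a whole number: low scores fall on multiples of 1 step per library, and dividing by it recovered reads (99.964% to 100% of nonzero scores matched exactly after rounding). The rounded scores are not themselves read counts and were fitted as log2 values. The recovered reads were used for the counting intervals and for voom.

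Differences were fitted with limma 3.58.1 (R 4.3.3, trend) on log2(score + 1) for 20429 components averaging a score of 10 or more (98.95% of the summed scores). Tests were two-sided with Benjamini-Hochberg adjustment over all of these and a threshold of 0.05. Hindlimb stages were fitted on 6 hindlimb libraries and regions on 6 S15-17 libraries. Ratios used exact binomial and Poisson 95% intervals (Python 3.11.15, scipy 1.17.1). The fits were tested on simulated data. Besides the members, 2 components are named by highest mean r to them and 2 by next limb difference. Members, comparisons and lists were chosen with earlier results of these data known; the alternatives are in the closing section.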

Additional observations from a re-analysis of the deposited data

How the results depend on the processing

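Of 340 recomputed member values, 325 kept their direction and side of the threshold, or stayed within their counting interval; 4 lost a call, 6 gained one and 5 changed sign. The fall of comp13621_c0 to S15-17 kept its call in limma under every alternative run, with adjusted p from 5.8e-05 to 0.029, and comp7133_c0 gained one in limma with median-centred libraries (adjusted p = 0.035) and robust shrinkage (0.045), over a range of 0.035 to 0.45. For S15-17 against S14, 2590 components were called with no filter; 1123 without the anterior, 1903 without the middle and 1231 without the posterior bud, 1507 without foot digits, 1220 without foot interdigital tissue and 3928 without metatarsals. The thumb against wing count of 2 became 0 with a pseudocount of 0.25, no filter, no block, or thumb and wing libraries only, and was raised to 16 at a pseudocount of 5. Scaling by the upper quartile gave 7, centring on the median 154, voom 156 and robust shrinkage 193. It was 0 without digit I, digits II-V, interdigital tissue II-V or either foot part, and 2 without interdigital tissue I-II. Leaving out 1 library, the thumb minus wing difference ran from -0.51 to 0.10 for comp13294_c0, from -0.27 to 0.80 for comp13621_c0 and from -0.39 to 2.54 for comp14177_c0. The interaction of comp14177_c0 ran from -2.28 to 0.12, and the interaction count from 0 to 1. The fetal comparison without its only fetal library gives no value and was not run. Depth limits comp13294_c0, comp3599_c0 and comp14177_c0 in forelimb, at 3, 38 and 41 reads.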
